A study of Mus musculus with 31 samples.

Results

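Reactive gliosis and the acute phase response of the retina were followed through 10 genes, Gfap, Lcn2, Cp, Serpina3n, Edn2, Edn1, Edn3, Cd44, Timp1 and A2m, in a pair of mouse models of insulin-deficient diabetes. Every probe annotated to one of these symbols was taken, which gave 15 of the 25697 probes of the array, for 9 of the 10 genes. No probe was annotated to A2m. The 31 arrays, Illumina BeadChips read in a single colour, each held RNA of 1 whole-retina sample of strain C57BL/6J, and the diabetic groups had 3 months of hyperglycaemia. The first model was Ins2Akita, a dominant insulin mutation (in Ins2) that damages pancreatic beta cells, with 9 heterozygous samples (genotype Ins2Akita/Ins2) set against 8 wild-type samples (Ins2/Ins2). The second was streptozotocin (STZ), which kills beta cells, with 6 STZ samples set against 8 untreated samples (treatment control). In both models the diabetes is systemic, so no retinal cell type is targeted, and the age of the mice is not given in the sources used here.

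When the retina is stressed, its astrocytes and Muller glia (the radial glia that span its whole depth) become reactive, and Gfap, the intermediate filament of astrocytes, is the classical sign of this state. Many of the same stimuli, among them cytokines that signal through gp130 and the transcription factor STAT3, also switch on acute phase genes, whose proteins bind iron, carry copper or block proteases. Endothelins are small vasoactive peptides that act on astrocytes and vessels as well, and in the mouse Edn2 is known to be induced in injured photoreceptors.

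Promoter windows of Gfap, Lcn2 and Serpina3n are shown because the results below turn on these genes and because the motifs of STAT and C/EBP factors, which act in gliosis and in the acute phase, are often looked for in them. Each window comes from RefSeq on build GRCm38.p6 and runs from 250 bases before to 50 bases after the annotated start, and capitals mark a match to TTCNNNGAA (STAT) or to TTNNGNAA (C/EBP), the latter read on either strand. The window of Gfap is chr11:102897151-102897450 on the minus strand, that of Lcn2 is chr2:32387690-32387989 on the minus strand and that of Serpina3n is chr12:104406458-104406757 on the plus strand.
Gfap: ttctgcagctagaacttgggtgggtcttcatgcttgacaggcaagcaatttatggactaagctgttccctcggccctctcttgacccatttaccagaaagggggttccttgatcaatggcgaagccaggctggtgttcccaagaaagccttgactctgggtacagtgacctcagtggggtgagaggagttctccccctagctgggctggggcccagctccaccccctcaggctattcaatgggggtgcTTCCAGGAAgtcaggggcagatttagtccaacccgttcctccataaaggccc
Lcn2: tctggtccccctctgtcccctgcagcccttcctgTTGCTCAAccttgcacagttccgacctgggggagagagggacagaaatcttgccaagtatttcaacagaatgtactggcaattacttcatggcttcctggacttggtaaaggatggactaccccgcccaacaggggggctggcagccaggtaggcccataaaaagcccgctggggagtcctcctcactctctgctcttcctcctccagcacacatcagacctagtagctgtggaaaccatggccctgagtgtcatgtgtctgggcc
Serpina3n: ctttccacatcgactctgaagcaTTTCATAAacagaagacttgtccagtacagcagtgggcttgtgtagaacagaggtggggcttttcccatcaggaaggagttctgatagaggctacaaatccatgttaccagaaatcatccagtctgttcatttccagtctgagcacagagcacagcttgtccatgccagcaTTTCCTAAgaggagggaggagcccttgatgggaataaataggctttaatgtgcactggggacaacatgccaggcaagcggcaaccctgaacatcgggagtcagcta
The STAT match in Gfap begins at -2 from the start, the C/EBP match in Lcn2 at -216, and those in Serpina3n at -227 and -56. TTCNNNGAA was found in 1 of the 10 windows of the 9 genes with a probe, and in 8.3% of all 32851 promoter windows of this length. TTNNGNAA was found in 5 of the 10 windows and in 40.7% of all. A match describes the letters only, and no binding was measured.

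Values are log2 intensities after background correction and quantile normalization, and a level of one probe cannot be set against that of another. A probe counted as detected on an array when its deposited detection p was under 0.05, and it was kept for testing when detected on at least 6 arrays. Of the 15 probes, 9 were kept, for 8 genes, and 6 were not. Detected probes numbered 14581 to 16460 per array. The labels place the groups on 4 separate BeadChips, apart from Ins2Akita replicate 9, which was hybridised with the STZ samples, so for all but that array BeadChip and group cannot be told apart. The arrays carried the photoreceptor signal of retina, with 8 of 9 rod and cone markers measured and a mean of 12.1 to 12.4 on the log2 scale. Lens crystallin genes differed far more between single arrays, with a mean over 12 genes from 4.79 on Ins2Akita replicate 4 to 13.16 on untreated replicate 2. In whole tissue, fewer cells of a type and less RNA per cell cannot be told apart.

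**Figure D1:**
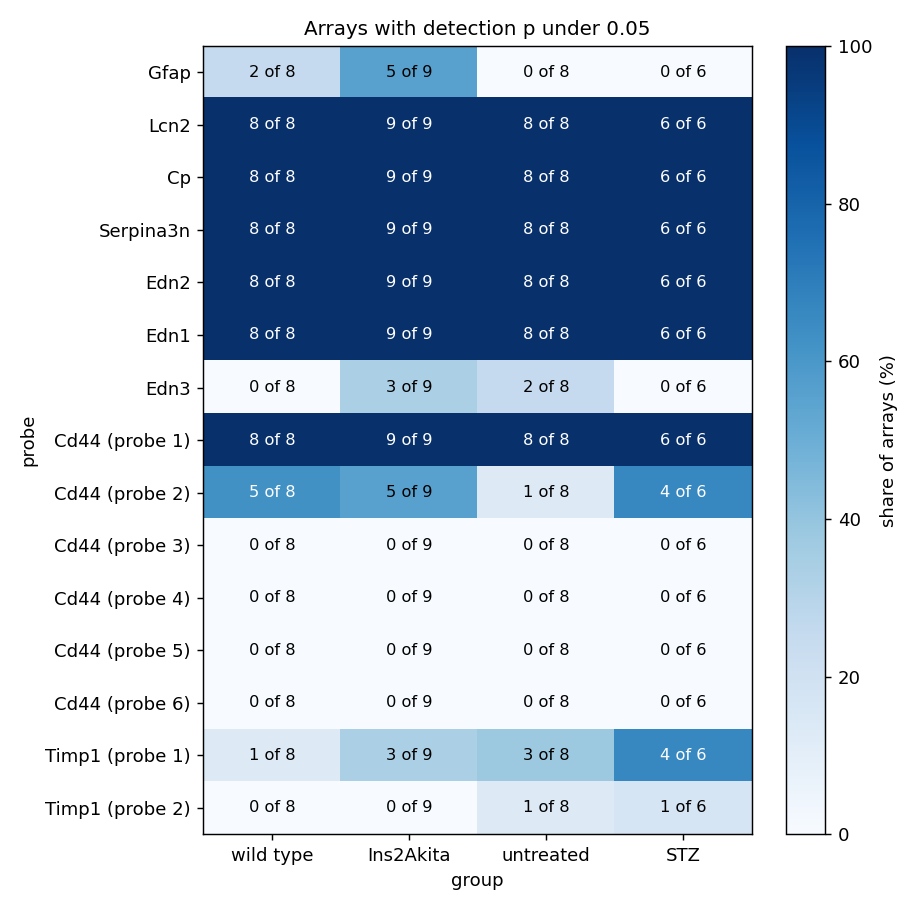
Arrays on which each of the 15 probes (rows) was detected at p under 0.05, as a count and, by colour, as a percentage of the arrays of each group (columns). Lcn2, Cp, Serpina3n, Edn2, Edn1 and the first Cd44 probe were detected on all 31 arrays, Gfap on 2, 5, 0 and 0 arrays of the groups in the order drawn, and Cd44 probes 3 to 6 on none.

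Across the panel, 0 of the 9 probes kept passed an adjusted p of 0.05 in Ins2Akita against wild type, where 4.16% of the 16743 probes tested on the array passed. At an unadjusted p under 0.05 it was 1 of 9, Edn1, against 19.2% of all probes. In STZ against untreated 0 of 9 passed as well, where 0.0358% of all probes did, and Lcn2, Cp and Serpina3n were the 3 probes under an unadjusted 0.05, against 8.55% of all probes. The median change of the 9 probes was 0.12 in Ins2Akita and 0.29 in STZ on the log2 scale, beside medians of -0.00092 and -0.013 over all probes tested. Of the 9, 6 lay above 0 in Ins2Akita, where 49.8% of all probes did, and 8 in STZ, where 45.6% did. The 8 and the STZ median include Gfap, whose probe was not above background in STZ and untreated retina. For 0 of the 9 did the diabetic and control groups fail to overlap, a pattern seen in 0.46% of all probes for Ins2Akita and 0.209% for STZ. Nor did the control groups fail to overlap for any of the 9 (3.18% of all). The difference between the 2 models passed the test for 0 of 9 probes (0.0179% of all), and at an unadjusted p under 0.05 for 0 as well (8.65% of all). Averaged over both models, a comparison added after the data were seen, 1 of 9 probes rose, that of Lcn2, where 3% of all probes passed and 1.44% rose.

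**Figure D2:**
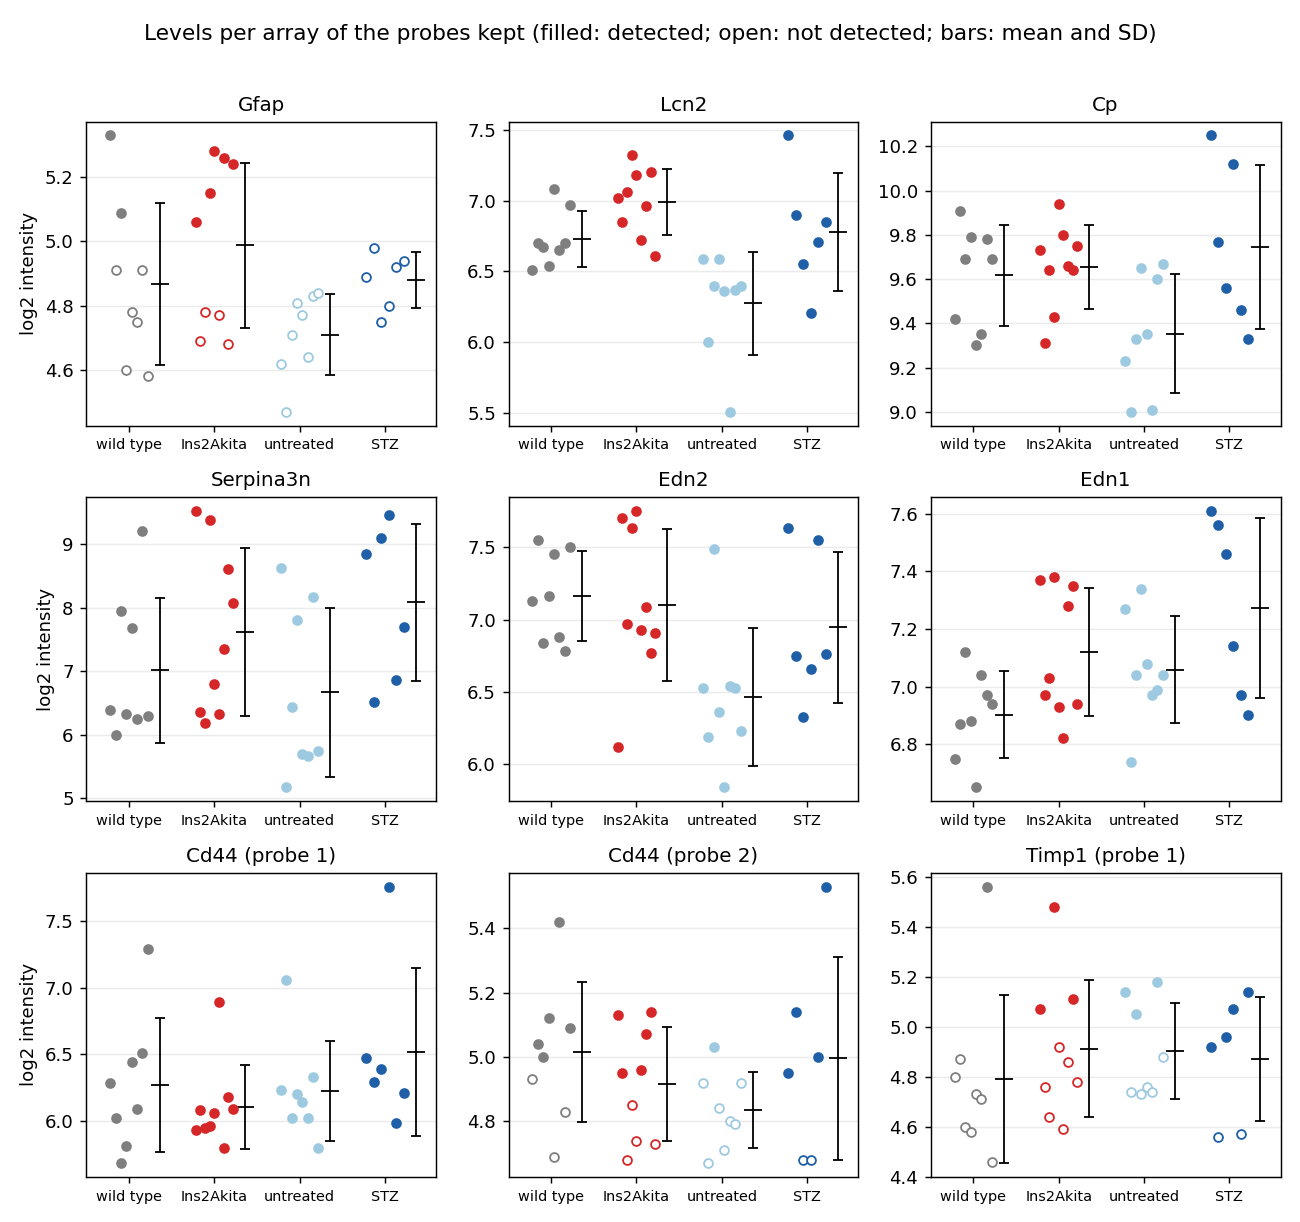
Log2 intensity of the 9 probes kept on each of the 31 arrays, by group, with filled points for arrays where the probe was detected and open points for the others. Black marks give the group mean and SD. Every panel shows overlapping groups, and Serpina3n spans the widest range, 5.17 to 9.52.

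Gfap was near the limit of detection. Its probe was detected in wild type on 2 of 8 arrays, in Ins2Akita on 5 of 9, and on 0 of 8 untreated and 0 of 6 STZ arrays. Wild-type levels ran from 4.58 through a median of 4.84 to 5.33, and Ins2Akita levels from 4.68 through 5.06 to 5.28. The 5 detected Ins2Akita arrays (replicates 1, 4, 5, 7 and 9) lay at 5.06 to 5.28, while the wild-type array with the highest value, replicate 1, lay above all of them. Mean levels were 4.87 ± 0.25 (SD, n = 8) and 4.99 ± 0.26 (SD, n = 9), a difference of 0.12 (SE 0.098, adjusted p = 0.529, 95% interval -0.08 to 0.32), or 1.09-fold. In the deposited series matrix the difference turned to -0.138 (adjusted p = 0.184), where the median of all probes had shifted by -0.086. Without wild type replicate 1 the difference was 0.19 and without wild type replicate 8 it was 0.079. Untreated levels ran from 4.47 through 4.74 to 4.84 and STZ levels from 4.75 through 4.90 to 4.98. Since the probe was not above background on any array of these groups, no fold is given for them. The offset of 16 added in the normalization narrows changes of so dim a probe. Over the 31 arrays, with each group centred on its mean and with 24 of the Gfap values not above background, the genes most like Gfap were Gipc2, Lhx8 and Ensa, at Pearson r of 0.60, 0.58 and 0.58. With the lens crystallin score Gfap correlated at r of -0.58 and rho of -0.48 (permutation p adjusted over 90 relations 0.0149 and 0.0812). Within wild type, Ins2Akita, untreated and STZ r was -0.75, -0.52, -0.62 and -0.27, and it was -0.55 without untreated replicate 2 and STZ replicate 4. The part of lens tissue in the Gfap values was not tested beyond a fit with lens and pigment epithelium scores as covariates.

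Lcn2 encodes lipocalin 2, which binds bacterial iron carriers and is released by reactive astrocytes and by neutrophils. It was the 1 member that passed a test of diabetes, and it did so in the mean of both models. Its probe was detected on all 31 arrays. Levels were 6.51, 6.69 and 7.08 (lowest, median and highest) in wild type and 6.61, 7.02 and 7.32 in Ins2Akita. Of the 9 Ins2Akita arrays, 8 lay above the wild-type median and 3 above the highest wild-type array. Untreated arrays gave 5.51, 6.38 and 6.59, and STZ arrays 6.21, 6.78 and 7.46. Of the 6 STZ arrays, 4 lay above the highest untreated array, and the lowest, replicate 4, lay below the untreated median. The change was 0.26 in Ins2Akita (SE 0.141, adjusted p = 0.315, 95% interval -0.03 to 0.55) and 0.51 in STZ (SE 0.156, adjusted p = 0.252, 95% interval 0.19 to 0.82), or 1.2-fold and 1.42-fold. Neither passed the test.

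The mean of both Lcn2 changes was 0.38, or 1.30-fold, and passed (SE 0.105, adjusted p = 0.0409). This call was lost on leaving out any one of 14 of the 31 arrays, namely wild type replicates 1, 2, 3, 4 and 6, Ins2Akita replicates 1, 3, 4 and 8, untreated replicates 2 and 6 and STZ replicates 1, 2 and 6. Over all 31 omissions the value stayed between 0.316 and 0.441 and the adjusted p between 0.0223 and 0.0809. STZ replicate 1 held the highest level of all, and without it the STZ change was 0.37 and the mean of both changes 0.316 (adjusted p = 0.0809). The call was also lost with median scaling (adjusted p = 0.0841), without the filter on dim probes (0.0557), when BeadChip was a random block (0.111) and with lens and pigment epithelium scores as covariates (0.0906).

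The control groups differed for Lcn2 as well. Untreated arrays were lower than wild-type arrays by 0.45 (log2 change -0.45, SE 0.145, adjusted p = 0.0231, n = 8 and 8), or 0.73 of the wild-type level. This comparison shares its arrays with both diabetes comparisons, and in it 22.2% of all probes passed and 10.9% passed as lower. The call was lost without untreated replicate 6, the lowest array (-0.343, adjusted p = 0.0603), and when BeadChip was a random block (adjusted p = 0.0542). In order of their means the groups ran Ins2Akita, STZ, wild type and untreated. Of these neighbours, wild type and untreated passed the test, while Ins2Akita and STZ (adjusted p = 0.361) and STZ and wild type (0.841) did not. The ends of this order, Ins2Akita and untreated, passed (log2 difference 0.72, SE 0.141, adjusted p = 0.000449), in a comparison across cohorts where 23.3% of all probes did.

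Leukocyte markers moved with Lcn2 from array to array. Of 12 such genes 8 were measured, Ptprc, Itgam and Ngp were detected on at most 1 array, and the mean log2 level ran from 5.83 to 6.47 in wild type, 5.62 to 6.24 in Ins2Akita, 5.51 to 6.22 in untreated and 5.78 to 6.398 in STZ. With groups centred, Lcn2 correlated with this score at Pearson r of 0.67 and Spearman rho of 0.61 (n = 31, permutation p adjusted over 90 relations 0.00202 and 0.012). Within wild type, Ins2Akita, untreated and STZ r was 0.84, 0.58, 0.79 and 0.55, and without the pair of arrays farthest from the median score it was 0.56. STZ replicate 1 held both the highest Lcn2 level and the highest leukocyte score of its group, and untreated replicate 6 the lowest of both.

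With the leukocyte score as a covariate, a fit added after the data were seen, the change of Lcn2 in Ins2Akita was 0.466 (SE 0.116, adjusted p = 0.0184, in a fit that called 5.3% of all probes). In STZ it was 0.412 and did not pass (adjusted p = 0.236, with 0.0239% of all probes called), below the 0.51 without the covariate, and the mean of both changes was 0.439 (adjusted p = 0.0024, with 4.78% of all probes called). The difference between the control groups became -0.291 (adjusted p = 0.0696). The score is itself lower in Ins2Akita, where its members S100a8 and S100a9, the calprotectin genes of neutrophils, fell by 1.02 and 0.76 (adjusted p = 0.015 and 0.034). They were 2 of 8 measured markers called there, where 4.16% of all probes passed. S100a8 was detected on 17 and S100a9 on 12 of the 31 arrays, so many of their values were not above background. The part of leukocyte RNA in the level of Lcn2 was not tested beyond these fits. Cnot11, Pigt and Tcea3 followed Lcn2 most closely over the arrays, at r of 0.73, 0.71 and 0.71.

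**Figure D3:**
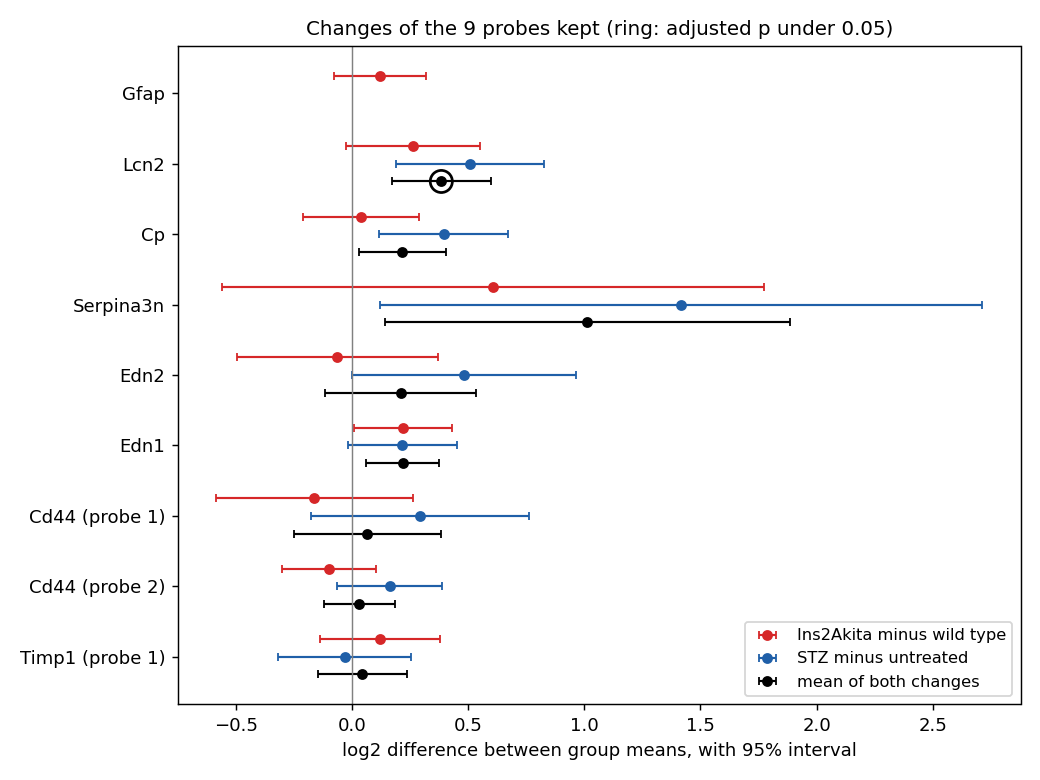
Difference in mean log2 intensity with its 95% interval for the 9 probes kept, in Ins2Akita against wild type (red), STZ against untreated (blue) and their mean (black). A ring marks an adjusted p under 0.05, reached by the mean change of Lcn2 (0.38), and Gfap has no blue or black point because its probe was not above background in STZ and untreated retina.

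Cp encodes ceruloplasmin, the copper-carrying ferroxidase of plasma and glia. Its probe was detected everywhere. Wild-type levels were 9.30, 9.69 and 9.91 (lowest, median and highest) and Ins2Akita levels 9.31, 9.66 and 9.94, so these groups covered nearly the same span. Untreated levels were 9.00, 9.34 and 9.67, and STZ levels 9.33, 9.66 and 10.25. Of the 6 STZ arrays 3 exceeded every untreated array. The change was 0.04 in Ins2Akita (SE 0.122, adjusted p = 0.904, 95% interval -0.21 to 0.29) and 0.39 in STZ (SE 0.136, adjusted p = 0.337, 95% interval 0.12 to 0.67), the latter 1.31-fold and not passing over all probes. The difference between the models was 0.36 (SE 0.183, adjusted p = 0.613).

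Within Cp, untreated arrays stood lowest. They differed from wild type by -0.26 (adjusted p = 0.133), and this difference passed with median scaling alone among the alternatives (-0.389, adjusted p = 0.0146), a scaling that moved the median of all probes by -0.078. STZ replicate 1 was the highest array again, and without it the STZ change was 0.294. Cp followed the Muller glia markers, 11 of 12 measured with a mean of 10.72 to 10.97 on the arrays, at r of 0.53 and rho of 0.56 (adjusted permutation p = 0.0149 and 0.0244), and r was 0.43 without the pair of arrays farthest from the median score. Within wild type, Ins2Akita, untreated and STZ it was 0.73, 0.12, 0.82 and 0.41, so in Ins2Akita the relation was near 0. The most similar genes were Il33 (r = 0.75), an alarmin cytokine, the extracellular matrix gene Optc (0.71) and Pdyn (0.70).

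Serpina3n, a secreted inhibitor of serine proteases that is strongly induced in reactive astrocytes, varied more than any other member. Levels were 6.00, 6.36 and 9.21 (lowest, median and highest) in wild type, 6.19, 7.35 and 9.52 in Ins2Akita, 5.17, 6.09 and 8.62 in untreated and 6.52, 8.27 and 9.46 in STZ. The whole range was 20.4-fold, and the narrowest group, STZ, spanned 7.70-fold. Its SD within groups of 1.26 was larger than that of 99.6% of the probes kept. All 6 STZ arrays lay above the untreated median, 3 of them above the highest untreated array, and 7 of 9 Ins2Akita arrays lay above the wild-type median.

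Against that spread, the change in Serpina3n was 0.61 in Ins2Akita (SE 0.572, adjusted p = 0.596, 95% interval -0.56 to 1.77) and 1.42, or 2.67-fold, in STZ (SE 0.636, adjusted p = 0.526, 95% interval 0.12 to 2.71). The mean of both was 1.01 (SE 0.428, adjusted p = 0.186). Single arrays moved the size of the Ins2Akita change, though not its sign. It was 0.37 without Ins2Akita replicate 1, 0.387 without Ins2Akita replicate 4 and 0.921 without wild type replicate 7. The STZ value stayed between 1.14 and 1.73 on leaving out any array. Serpina3n belongs to a cluster of near-identical mouse genes, and probe sequences were not used here, so signal from its copies cannot be told apart.

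Serpina3n varied over arrays together with markers of the pigment epithelium and melanocytes, tissue that borders the retina. Of 13 such genes 11 were measured, Slc26a7 was detected on no array, and their mean level ran from 6.52 to 9.86 in wild type, 7.17 to 9.91 in Ins2Akita, 6.39 to 9.44 in untreated and 7.59 to 9.46 in STZ. Serpina3n correlated with this score at r of 0.83 and rho of 0.75 (n = 31, adjusted permutation p = 0.00045 and 9e-04), and at 0.78 without the pair of arrays farthest from the median score. Within wild type, Ins2Akita and untreated r was 0.93, 0.94 and 0.83, and within STZ it was 0.43. Wild type replicate 7 held the highest value of both in its group.

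The 4 astrocyte markers measured, out of 7, gave Serpina3n an r of 0.87 and a rho of 0.84 (adjusted permutation p = 0.00045 and 9e-04), with Pax2 detected on 0 arrays. Within the groups, in the order above, r was 0.92, 0.92, 0.79 and 0.85. The astrocyte and pigment epithelium scores were highest on the same array in wild type (replicate 7), untreated (replicate 7) and STZ (replicate 3). In Ins2Akita they were highest on replicates 1 and 4. A relation with one of these lists was therefore not told apart from a relation with the other. Gja1, the gap junction gene of the astrocyte list, moved by 0.82 in Ins2Akita and by 1.41 in STZ (adjusted p = 0.388 and 0.433). The median change of the 4 markers was lower, 0.21 in Ins2Akita, where 1 lay below 0, and 0.14 in STZ. Of the 4, 0 passed in either comparison, where 4.16% and 0.0358% of all probes passed. Erythrocyte (3 of 6 genes measured) and leukocyte scores correlated with Serpina3n at 0.68 and 0.64. With lens and pigment epithelium scores as covariates the change of Serpina3n was -0.0947 in Ins2Akita (adjusted p = 0.923) and 0.869 in STZ (0.838). With the leukocyte score as a covariate, a fit added after the data were seen, the mean of both changes was 1.23 and passed (adjusted p = 0.0295). In that fit 4.78% of all probes were called. With lens and pigment epithelium scores the mean of both changes did not pass. Over the alternatives that mean ran from 0.387 to 1.23, with adjusted p from 0.0295 to 0.483. Whether these tissues supplied the Serpina3n signal was not tested beyond these fits. Stac, Pon3 and Palmd followed it most closely, each at r of 0.93.

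**Figure D4:**
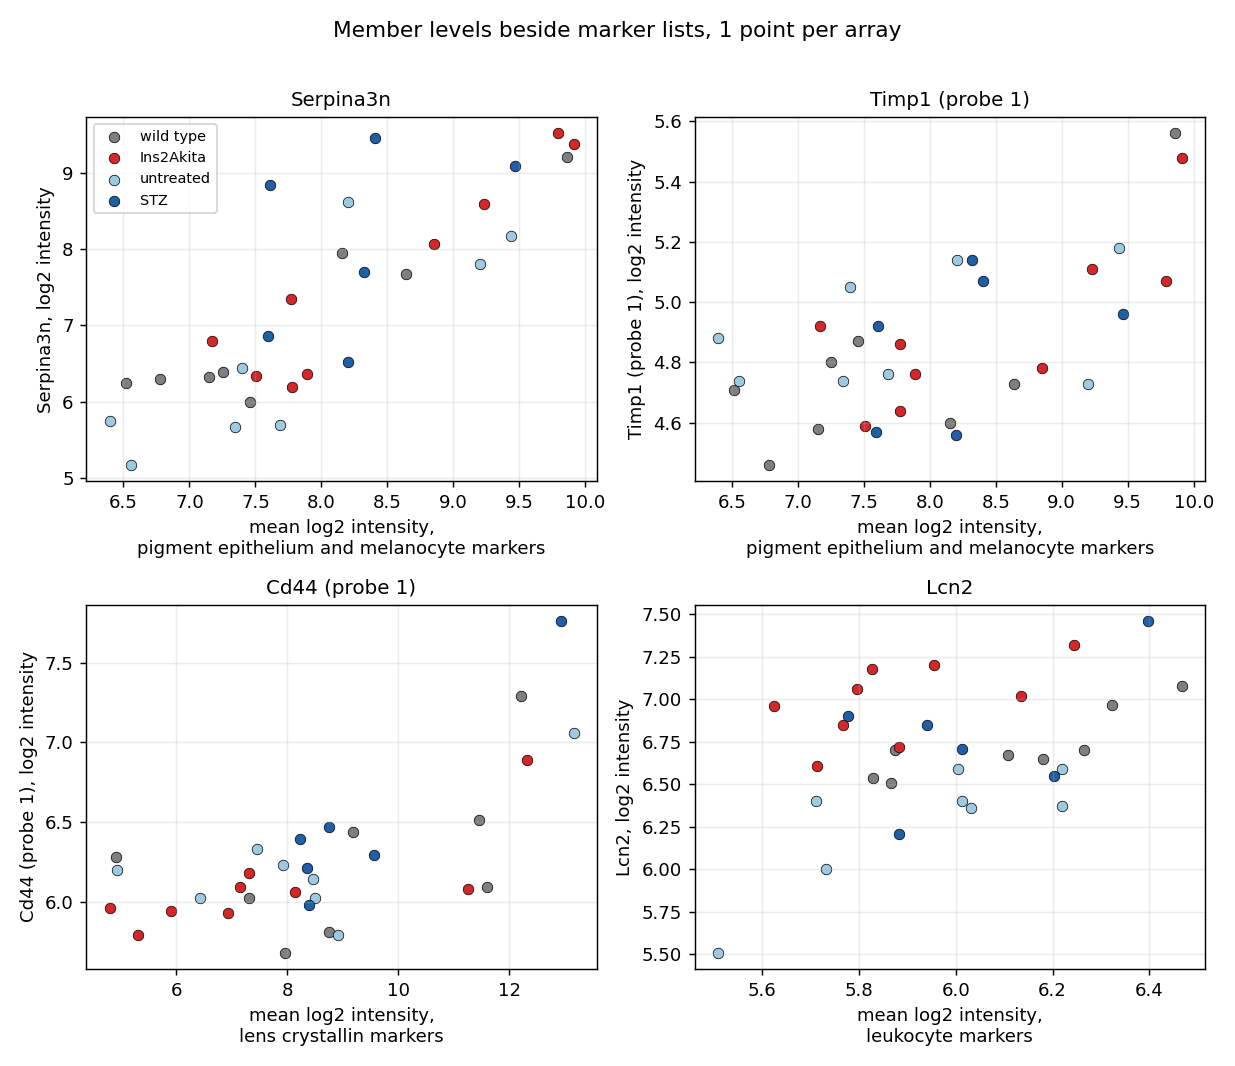
Log2 intensity of Serpina3n, Timp1 probe 1, Cd44 probe 1 and Lcn2 (vertical axes) against the mean log2 intensity of a marker list (horizontal axes), 1 point per array, coloured by group. Serpina3n follows the pigment epithelium list (r = 0.83 with groups centred), and the 4 highest points of Cd44 probe 1 are the arrays with the highest lens signal of each group.

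A2m, a broad-range protease inhibitor, was not measured. Pzp, which carries A2m among its older names in the RefSeq gene list, had 1 probe, detected on 0 of 31 arrays.

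Among the endothelins, Edn1, a constrictor of vessels made mainly by endothelium, was detected on all arrays. Levels were 6.65, 6.91 and 7.12 (lowest, median and highest) in wild type and 6.82, 7.03 and 7.38 in Ins2Akita, and 4 of 9 Ins2Akita arrays exceeded every wild-type array. In untreated they were 6.74, 7.04 and 7.34 and in STZ 6.90, 7.30 and 7.61, with 3 of 6 STZ arrays above every untreated array. Both changes were of like size, 0.22 in Ins2Akita (SE 0.104, adjusted p = 0.239, 95% interval 0.01 to 0.43) and 0.21 in STZ (SE 0.115, adjusted p = 0.619, 95% interval -0.02 to 0.45), or 1.16-fold in each. Their difference was -0.0042 with a 95% interval of -0.32 to 0.31. Their mean was 0.22 (SE 0.0774, adjusted p = 0.115). Ordered by mean the groups ran STZ, Ins2Akita, untreated and wild type, with adjusted p of 0.368, 0.708 and 0.31 between neighbours. STZ and wild type, the ends of this order, passed (log2 difference 0.37, adjusted p = 0.0179), in a comparison across cohorts where 24.8% of all probes did. Edn1 correlated with the erythrocyte score, of which 3 of 6 genes were measured, at r of 0.60 and rho of 0.61 (adjusted permutation p = 0.00527 and 0.012). Then r was 0.54 without the pair of arrays farthest from the median score, and it was 0.73, 0.68, 0.88 and 0.25 within the 4 groups in the order wild type, Ins2Akita, untreated and STZ. With the astrocyte score it correlated at r of 0.51 and rho of 0.56 (adjusted permutation p = 0.0379 and 0.0244), at r of 0.44 without the pair of arrays farthest from the median score, and at -0.04, 0.71, 0.68 and 0.54 within the groups in the same order. The part of the erythrocyte or astrocyte list in the Edn1 values was not tested. In wild type, untreated and STZ the astrocyte score shared its highest array with the pigment epithelium score. Iscu, Necab2 and Chrm2 were most like Edn1, at r of 0.75, 0.69 and 0.69.

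Edn2 was also detected on every array and its changes lay on either side of 0 without passing any test of diabetes. Wild-type levels were 6.78, 7.15 and 7.55 (lowest, median and highest), and Ins2Akita levels 6.12, 6.97 and 7.75, which reached both below and above wild type. Untreated levels were 5.84, 6.45 and 7.49 and STZ levels 6.33, 6.76 and 7.63. The change was -0.06 in Ins2Akita (SE 0.213, adjusted p = 0.905, 95% interval -0.50 to 0.37) and 0.48 in STZ (SE 0.236, adjusted p = 0.585, 95% interval -0.00071 to 0.96). The difference of the models was 0.55 (SE 0.318, adjusted p = 0.677). Without Ins2Akita replicate 1, the lowest of its group, the Ins2Akita change turned to 0.057.

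Between the controls Edn2 differed as well. Untreated arrays were lower than wild type by 0.70 (log2 change -0.70, SE 0.219, adjusted p = 0.0209, n = 8 and 8), or 0.62 of the wild-type level. The call was lost without untreated replicate 5 (-0.608, adjusted p = 0.0533) and when BeadChip was a random block (0.0505). These calls for Lcn2 and Edn2 are the 2 of 9 that passed between controls, both lower in untreated, a share of 22.2% that equals the 22.2% of all probes called there. In order of means the groups ran wild type, Ins2Akita, STZ and untreated, and neighbours gave adjusted p of 0.905, 0.695 and 0.585. Scube2, Kif4 and the metalloprotease gene Adamts19 were most like Edn2, at r of 0.68, 0.66 and 0.66.

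Edn3, the ligand that in the mouse guides melanocyte and enteric neuron precursors, was detected on 5 of 31 arrays, Ins2Akita replicates 1, 4 and 8 and untreated replicates 4 and 7, and did not pass the filter on dim probes. With no filter it differed by 0.06 in Ins2Akita (SE 0.125, adjusted p = 0.843) and by -0.04 in STZ (SE 0.139, adjusted p = 0.989). Its highest level, 5.63, was that of untreated replicate 4, and group medians ran from 4.53 in untreated to 4.68 in STZ. The arrays with detected Edn3 held the highest pigment epithelium scores of their groups. These were 9.23 to 9.91 in Ins2Akita and 9.20 and 9.44 in untreated. Wild type replicate 7 and STZ replicate 3, the highest of their groups at 9.86 and 9.46, had no detected Edn3. The part of that tissue in the Edn3 values was not tested.

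Cd44 encodes the hyaluronan receptor, found on the apical processes of Muller glia in the mouse and raised in reactive glia. It had 6 probes, of which 4 were detected on 0 of 31 arrays. Probe 1, annotated to a different transcript record than the other 5, was detected on all 31 arrays. Its levels were 5.68, 6.18 and 7.29 (lowest, median and highest) in wild type, 5.79, 6.06 and 6.89 in Ins2Akita, 5.79, 6.17 and 7.06 in untreated and 5.98, 6.34 and 7.76 in STZ. Each group held 1 array well above the others, wild type replicate 8, Ins2Akita replicate 6, untreated replicate 2 and STZ replicate 4. The change was -0.16 in Ins2Akita (SE 0.208, adjusted p = 0.716, 95% interval -0.59 to 0.26) and 0.29 in STZ (SE 0.231, adjusted p = 0.791, 95% interval -0.18 to 0.76). Without STZ replicate 4 the STZ change was 0.0447, and without wild type replicate 8 the Ins2Akita change was -0.0163.

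The same 4 arrays carried the highest lens crystallin signal of their groups. All 12 lens genes were measured, with a mean level from 4.90 to 12.21 in wild type, 4.79 to 12.32 in Ins2Akita, 4.93 to 13.16 in untreated and 8.23 to 12.93 in STZ. Cd44 probe 1 correlated with the lens score at r of 0.66 (adjusted permutation p = 0.00378), but by rank at 0.45 (0.0842), and r was 0.51 without untreated replicate 2 and STZ replicate 4. Within wild type, Ins2Akita, untreated and STZ it was 0.51, 0.79, 0.65 and 0.94. With the rod and cone score r was -0.58 and rho -0.49 (adjusted permutation p = 0.00783 and 0.0629), and r was -0.62 without the pair of arrays farthest from the median score. With lens and pigment epithelium scores as covariates, the difference between controls for probe 1 turned from -0.0427 to 0.0834 (adjusted p = 0.754). That fit called 0 member probes in either diabetes comparison. The part of lens tissue in the Cd44 values was not tested beyond it. Vit, Dapl1 and Nupr1 were the genes most like probe 1, at r of 0.89, 0.88 and 0.88.

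Probe 2 of Cd44 was detected on 5 of 8 wild-type, 5 of 9 Ins2Akita, 1 of 8 untreated and 4 of 6 STZ arrays. Its group medians were 5.02, 4.95, 4.82 and 4.97 in that order. It differed by -0.10 in Ins2Akita (SE 0.0998, adjusted p = 0.624) and by 0.16 in STZ (SE 0.111, adjusted p = 0.748), and the STZ value fell to 0.0545 without STZ replicate 6. In the deposited series matrix, whose background was not subtracted, the Ins2Akita difference was -0.244 and passed (adjusted p = 0.00803), on a scale where all probes had shifted by a median of -0.086. Gbx2, Dhrs4 and Frmd3 were most like probe 2, at r of 0.67, 0.64 and 0.64.

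Timp1, the tissue inhibitor of metalloproteinases that rises with astrocyte and Muller reactivity, had 2 probes, both dim. Probe 1 was detected on 1 of 8 wild-type, 3 of 9 Ins2Akita, 3 of 8 untreated and 4 of 6 STZ arrays. Levels were 4.46, 4.72 and 5.56 (lowest, median and highest) in wild type, 4.59, 4.86 and 5.48 in Ins2Akita, 4.73, 4.82 and 5.18 in untreated and 4.56, 4.94 and 5.14 in STZ. Thus the highest array of all was from a wild-type sample, replicate 7, the only one of its group with detected signal. The change was 0.12 in Ins2Akita (SE 0.126, adjusted p = 0.646) and -0.03 in STZ (SE 0.14, adjusted p = 0.9751). The Ins2Akita value was 0.23 without wild type replicate 7, 0.0728 without wild type replicate 8 and 0.0487 without Ins2Akita replicate 4. Probe 2 was detected on untreated replicate 4 and STZ replicate 4 only and did not pass the filter on dim probes. With no filter it differed by 0.15 in Ins2Akita (SE 0.0827, adjusted p = 0.359) and by 0.14 in STZ (SE 0.0919, adjusted p = 0.826).

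Timp1 probe 1 followed Serpina3n over the arrays (r = 0.72 with groups centred, the highest among the pairs of members) and the pigment epithelium score (r = 0.63, rho = 0.54, adjusted permutation p = 0.0054 and 0.0244). Without Ins2Akita replicate 4 and wild type replicate 7, r with that score was 0.42, and within the groups, wild type first and STZ last, it was 0.77, 0.77, 0.39 and 0.40. With the astrocyte score, of which 4 of 7 genes were measured, r was 0.59 and rho 0.55 (adjusted permutation p = 0.00783 and 0.0244), r was 0.58 without the pair of arrays farthest from the median score, and within the groups it was 0.58, 0.77, 0.49 and 0.57. The astrocyte and pigment epithelium scores shared their highest array in wild type, untreated and STZ. Since the probe was detected on 11 of 31 arrays, most of these Timp1 values were not above background. The 3 most similar genes were Defb2, Dhrs1 and Tspo, at r of 0.82, 0.79 and 0.78.

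**Figure D5:**
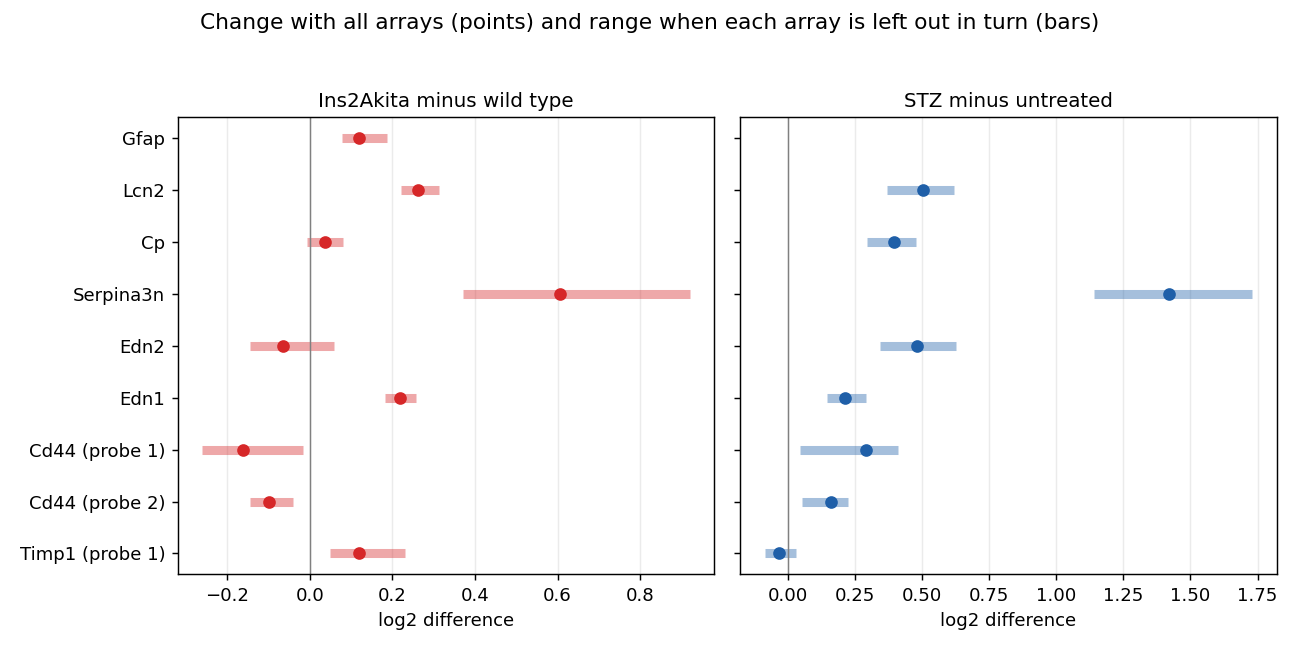
Log2 difference of each probe kept with all arrays (points) and its range when each of the 31 arrays was left out in turn (bars), for Ins2Akita against wild type on the left and STZ against untreated on the right. The bar of Cd44 probe 1 in STZ reaches down to 0.0447, and those of Lcn2 and Serpina3n in STZ start at 0.37 and 1.14. Gfap in STZ is left out because its probe was not above background.

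Genes that act with the members were read from further lists. Counts of calls stand beside 4.16% of all probes passing in Ins2Akita and 0.0358% in STZ. Among the other pan-reactive genes of astrocytes, 4 of 7 were measured and 0 passed in either diabetes comparison. Their median change was 0.014 in Ins2Akita and 0.15 in STZ, and Osmr, the oncostatin M receptor, differed by 0.19 in Ins2Akita (adjusted p = 0.371) and the filament gene Vim by 0.27 in STZ (adjusted p = 0.814). Of 13 genes of the A1 class of reactive astrocytes 8 were measured, and 0 passed in either comparison. Their medians were 0.039 and 0.061. Gbp2, an interferon-induced GTPase, differed by 0.58 in STZ (SE 0.138, adjusted p = 0.11), and Serping1, the inhibitor of complement C1, by 0.77 (SE 0.257, adjusted p = 0.3). Averaged over both models Gbp2 was the 1 of 8 that rose (0.34, adjusted p = 0.0413), where 1.44% of all probes rose. Of the A2 class 7 of 12 were measured, 0 passed in either comparison, and the medians were -0.036 and 0.12. Sphk1, which makes a lipid mediator from sphingosine, differed by 0.18 in Ins2Akita (adjusted p = 0.21), and the membrane protein gene Emp1 by 1.09 in STZ (SE 0.576, adjusted p = 0.614).

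The receptors and processing enzymes of endothelins, 4 of 5 measured, gave 0 calls in either comparison, with medians of 0.038 and 0.23. Of all probes 4.16% passed in Ins2Akita and 0.0358% in STZ, for this list and those that follow. Ednrb, the endothelin B receptor of glia and endothelium, differed by 0.39 in Ins2Akita and 0.41 in STZ (SE 0.257 and 0.286, adjusted p = 0.433 and 0.755). In gp130 cytokine signalling 10 of 17 genes were measured and 0 passed in either comparison, with medians of 0.062 and 0.063. Lifr, the receptor of leukaemia inhibitory factor, differed by -0.25 in both models (adjusted p = 0.204 and 0.576), and the shared receptor chain Il6st by -0.13 in Ins2Akita and 0.16 in STZ (adjusted p = 0.207 and 0.452). Other acute phase genes, 9 of 14 measured, had medians of 0.21 and 0.11 and 0 calls. Saa2, a serum amyloid A gene with a near-identical copy in Saa1, differed by 0.21 in Ins2Akita (adjusted p = 0.373) and Saa1 by -0.23 in STZ (adjusted p = 0.611).

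Of 22 partners of the members, such as targets of Timp1 and carriers of iron and copper, 14 were measured and 1 passed in Ins2Akita, where 4.16% of all probes passed. Mmp9, the gelatinase that Timp1 inhibits, fell by 0.30 (SE 0.0767, adjusted p = 0.0229, n = 9 and 8). Timp2, a relative of Timp1, differed by 0.31 (SE 0.0992, adjusted p = 0.071). In STZ 0 of 14 passed, where 0.0358% of all probes did, and Heph, a ferroxidase related to Cp, differed by 0.36 (SE 0.138, adjusted p = 0.424). The median change of the 14 was 0.079 in Ins2Akita and 0.067 in STZ. Averaged over both models 1 of the 14 rose and 1 fell, where 3% of all probes passed. Of the Muller glia markers 1 of 11 rose in Ins2Akita, the carbonic anhydrase gene Car14 (0.46, SE 0.0902, adjusted p = 0.00471), where 4.16% of all probes passed in either direction. In STZ 0 of 11 passed, where 0.0358% of all probes did. The median change of the 11 was -0.02 in Ins2Akita and 0.08 in STZ. Averaged over both models 1 of the 11 rose, where 1.44% of all probes rose.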

How the data were processed

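Total RNA of whole retina was measured on 31 arrays, grouped by the labels into 8 wild-type, 9 Ins2Akita, 8 untreated and 6 STZ samples. The labels do not say that samples are separate animals, and p-values then cover no more than the spread among the samples, possibly technical. Trizol extraction, column clean-up with DNase I and labelling with the Ambion TotalPrep kit are given per the labels' protocols, and the submitters' processing notes name BeadStudio. The authors deposited a table of probe intensities, background-subtracted and scaled to one mean of 351.837 per array (from the values), and beside each intensity a detection p-value. Their series matrix holds intensity values on a linear scale, with a mean of 403.64 per array and background not subtracted, linearly related on each array to the background-subtracted values to within 0.0107. Its medians per array were 74.0 to 95.8, and its values are not centred per gene.

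The deposited intensities were turned into log2 values with neqc (limma 3.58.1, R 4.3.3, data.table version 1.17.8, offset 16, quantile normalization). Probes were named through the platform annotation, updated by Entrez identifier to a RefSeq list (23978 of 25697 with 1 symbol, 0 with several, 1719 with none listed). Probes with detection p under 0.05 on at least 6 arrays were kept (16743). A model of 4 group means over all 31 arrays was fitted with lmFit and eBayes of limma, with two-sided p-values adjusted by Benjamini-Hochberg over all probes kept and calls at 0.05. The brightest probe spoke for a gene of the other lists. On simulated data the fit was checked before use. Correlations with marker scores used values centred per group and 100000 permutations within groups, two-sided, adjusted over 90 relations, and the smallest p they can give is 1e-05. Of these relations 13 passed for r.

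Alternatives were median scaling, the series matrix, offset 50, no filter, detection at 0.01, fits of the compared groups alone, a replicate block, the BeadChip as a random block (consensus correlation 0.0316), marker scores as covariates, and leaving out each array. As only Ins2Akita replicate 9 shared a BeadChip with another group, the BeadChip block cannot remove a difference of BeadChips between groups. The leukocyte covariate, the mean of both changes and the order of groups were added after the data were seen. Samples with the same replicate number correlated at -0.256 to 0.331 (8 pairs of Ins2Akita and wild type) and at -0.154 to 0.42 (6 pairs of STZ and untreated), so the numbers were not taken to pair samples.

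The members and lists were chosen with earlier results of these data known. Named were all members and probes. In the other lists those called in a diabetes comparison, or otherwise up to 2 genes with the smallest p in each, were eligible, and Gbp2 in the mean of both changes was named as the only call of its list there. For each member the 3 genes with the highest correlation were named. Motifs were searched on both strands of RefSeq promoter windows. Matplotlib 3.10.9 (Python 3.11.15) drew the figures.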

Additional observations from a re-analysis of the deposited data

Results flagged for a closer look

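In groups of 4 to 10 arrays, the highest or lowest array was compared with its nearest neighbour relative to the range of the group. Of 60 groups examined (15 probes in 4 groups), 6 held an array beyond the 95% limit, where chance gives about 1 in 20. Cd44 probe 1 had 3 of them. Ins2Akita replicate 6 lay at 6.89 with the next array at 6.18, untreated replicate 2 at 7.06 with the next at 6.33, and STZ replicate 4 at 7.76 with the next at 6.47. These arrays also had the highest lens crystallin score of their groups, 12.32, 13.16 and 12.93. The part of lens tissue was not tested beyond the fit with lens and pigment epithelium scores as covariates.

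Cd44 probe 6, detected on no array, lay at 4.73 on the same Ins2Akita replicate 6, with the next array at 4.39. Edn2 lay at 7.49 on untreated replicate 3, with the next untreated array at 6.54, and without that array the difference of STZ from untreated was 0.628. Timp1 probe 1 lay at 5.56 on wild type replicate 7, with the next wild-type array at 4.87, and this array also held the highest Serpina3n level (9.21) and pigment epithelium score (9.86) of its group.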

How the results depend on the processing

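The count of member probes called in Ins2Akita against wild type was 1 rather than 0 with the series matrix values and with the leukocyte score as a covariate. Between controls it was 0 rather than 2 with the BeadChip as a random block and 1 with the leukocyte score. For the mean of both changes it was 0 rather than 1 with median scaling, no filter, the BeadChip block and lens and pigment epithelium scores, and 2 with the leukocyte score. Over all probes, Ins2Akita against wild type gave 696 calls, and 217 with median scaling, 3953 with the series matrix, 448 with the compared groups alone and 228 with the BeadChip block. STZ against untreated gave 6, and 2 with the series matrix, 10 with offset 50, 0 with the compared groups alone by limma (1431 probes had an unadjusted p under 0.05 in the fit of all groups), 1 with the BeadChip block and 2 with lens and pigment epithelium scores. The difference of the models gave 3, and 0 with median scaling, 12 with the series matrix, 6 each with offset 50, no filter and lens and pigment epithelium scores, and 1 with the BeadChip block. The mean of both changes gave 502, and 147, 2878, 125, 256 and 800 with median scaling, the series matrix, the BeadChip block, lens and pigment epithelium scores and the leukocyte score. The comparison between controls gave 3723 calls of 16743 probes, and 2616 with the BeadChip block and 3772 with the leukocyte score. Higher and lower calls split 295 to 401 in Ins2Akita, but 51 to 166 with median scaling and 470 to 3483 with the series matrix, and between controls 1902 to 1821 but 938 to 2838 with median scaling.

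Signs turned as follows. With the series matrix, Gfap and Timp1 probe 1 in Ins2Akita were -0.138 and -0.133, the difference of the models 0.06 for Edn1 and 0.0592 for Timp1 probe 1, and the mean of both changes -0.0432 for Gfap, -0.0242 and -0.107 for Cd44 probes 1 and 2 and -0.103 for Timp1 probe 1. For Edn1 the difference of the models, -0.00417, was 0.0291 with median scaling, 0.00165 with offset 50, 0.00553 with the BeadChip block and 0.0669 with lens and pigment epithelium scores. With those scores Serpina3n in Ins2Akita was -0.0947, Cd44 probe 1 between controls 0.0834 and the mean change of Timp1 probe 1 -0.0582. With the leukocyte score the difference of the models was -0.0536 for Lcn2 and -0.378 for Serpina3n, and between controls Serpina3n was 0.301 and Cd44 probe 1 0.00734.

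The replicate block gave 17 calls in STZ against untreated and 848 in Ins2Akita against wild type, called 0 member probes in each, and turned Timp1 probe 1 in STZ to 0.0126. It changed no other call of a member probe. The labels do not say that the numbers pair samples.

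Leaving out each of 31 arrays gave 470 to 781 calls in Ins2Akita, 2 to 24 in STZ, 1 to 9 for the difference, 3069 to 3844 between controls and 303 to 711 for the mean. Member probes called stayed at 0 in both diabetes comparisons and the difference, 1 to 2 between controls and 0 to 1 for the mean. Signs turned for the mean of Cd44 probe 1 (-0.0591 to 0.138) and probe 2 (-0.0225 to 0.0623), Cd44 probe 1 between controls (-0.162 to 0.104), Cp in Ins2Akita (-0.00792 to 0.0802), the difference of Edn1 (-0.0718 to 0.0714) and Gfap (-0.0159 to 0.0918), Edn2 in Ins2Akita (-0.146 to 0.0574) and Timp1 probe 1 in STZ (-0.0865 to 0.0306).

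The causes of these shifts were not tested. Detection at 0.01 changed no call or sign of a member probe it kept. Dim probes (Gfap, Cd44 probe 2, Timp1) carry the background step and offset in their values.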
